A study of Homo sapiens with 24 samples.

Results

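The genes described here are the clustered histone genes, taken as every row annotated as protein coding whose symbol begins with HIST1H, HIST2H, HIST3H or HIST4H. There were 71 of them among the 58735 genes of the table: 6 for histone H1, 17 for H2A, 18 for H2B, 15 for H3 and 15 for H4. RNA had been sequenced from the SAS cell line, which derives from an oral squamous carcinoma, with wild-type (WT) NRF2 or with NRF2 E79Q, a form of the transcription factor that drives antioxidant genes. For each genotype there were 4 groups of 3 libraries: untreated, given CB-839 (0.1 µM), given ionizing radiation (RT, 4 Gy), or given both. CB-839 inhibits glutaminase. Cells received the drug or vehicle 24 h before irradiation, and RNA was taken 24 h after it. The sources used here do not give how E79Q was introduced, whether a line was 1 clone or a pool, whether the drug stayed on, or when unirradiated cells were harvested. They do not say either whether the 3 libraries of a group came from separate cultures, and each p-value therefore reflects the spread between libraries, which may be technical.

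Clustered histone genes supply the bulk of the histone protein that packages newly copied DNA, and they are transcribed mainly in S phase. Most of their mRNAs carry no poly(A) tail: they are cut just after a conserved stem-loop that is bound by the stem-loop binding protein, SLBP. Some members can also be cleaved further downstream at an ordinary polyadenylation signal, which gives a tailed mRNA that persists outside S phase, as is known for HIST1H1C, HIST1H2AC, HIST1H2BC, HIST1H2BD, HIST1H2BK and HIST2H2BE. A library selected on poly(A) holds mainly the tailed form. The sources used here do not say whether poly(A) selection was applied.

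Total counts ran from 14285084 to 23640197 per library. Among the listed markers of squamous epithelium, KRT5 was highest at a mean of 1000 CPM (counts scaled to library size). TP63 was at 188, and KRT14 and KRT6A were lowest at 30.9 and 18.2. The leukocyte markers PTPRC, CD68 and CD3E were at 0.00464, 0.178 and 0.0022, and the endothelial markers PECAM1 and VWF at 0.145 and 2.47. The fibroblast marker COL1A1 reached 29.5 CPM in 1 library against a mean of 5.33. COL1A2 reached 15.3 against a mean of 1.12, and PDGFRB averaged 0.561. Of 22 listed small RNAs without a tail, 14 had any count, and 3 were high enough to test: RN7SL2, SNORD17 and SNORA73B. RN7SK, RMRP and RPPH1, which are abundant in cells, were listed at 0. The summed level of the small RNAs ran from 49.6 to 978 CPM, nearly all of it RN7SL2, and replicates 2 and 3 of WT cells with CB-839 were highest at 978 and 975.

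The 16-base histone stem-loop was searched on the sense strand of the GENCODE 29 transcripts, and 31 of the 71 members held it, against 0.0619% of all 206694 transcripts. The 26-base sites below belong to 5 members with 4 or more calls, to HIST2H2BE and HIST1H2AE, each one side of a head-to-head pair described further on, and to HIST2H4A as an example of another stem-loop form. Capitals mark the 16-base stem-loop, and the GRCh38 coordinates are those of the capitals alone. The sites are written in the order of transcription.

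HIST1H2AC, chr6:26124669-26124684 (+): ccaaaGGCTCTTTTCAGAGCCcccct
HIST1H2BC, chr6:26123472-26123487 (-): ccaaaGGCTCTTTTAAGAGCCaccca
HIST1H2BD, chr6:26158587-26158602 (+): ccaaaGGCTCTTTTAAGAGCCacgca
HIST1H2BH, chr6:26252055-26252070 (+): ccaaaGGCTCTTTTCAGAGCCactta
HIST2H2BE, chr1:149886188-149886203 (-): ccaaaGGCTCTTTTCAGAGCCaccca
HIST3H2A, chr1:228457369-228457384 (-): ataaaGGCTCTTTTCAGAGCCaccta
HIST1H2AE, chr6:26217417-26217432 (+): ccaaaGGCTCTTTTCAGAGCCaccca
HIST2H4A, chr1:149833032-149833047 (+): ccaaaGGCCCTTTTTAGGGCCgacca

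The commonest stem-loop, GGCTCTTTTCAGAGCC, was in 17 members, and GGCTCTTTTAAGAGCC, that of HIST1H2BC and HIST1H2BD, was in 5. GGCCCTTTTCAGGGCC was in 5, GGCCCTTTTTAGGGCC, that of HIST2H4A, in 3 and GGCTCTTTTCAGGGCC in 1. What differed far more than the loop was how far the annotated gene ran beyond it. In 23 members the gene model went on for at least 100 bases of the genome past the stem-loop, and 16 of these held the polyadenylation signal AATAAA beyond it. Counted along the genome, introns included, HIST1H2AC ended 14432 bases past its stem-loop, HIST1H2BD 12747, HIST1H2BC 8599, HIST2H2BE 1729 and HIST1H2BH 1640. Within the transcript that held the stem-loop and ran farthest past it, the bases beyond were fewer for the first of these. They were 1128 in HIST1H2AC, 39 in HIST1H2BD and 116 in HIST1H2BC, but 1729 in HIST2H2BE and 1640 in HIST1H2BH. In 8 members, such as HIST1H2AE with 51 bases, the model ended by the stem-loop. In 33, such as HIST2H2AC, HIST1H1C and HIST1H2BK, the model was the coding sequence with its stop codon alone, so it held no stem-loop, and reads beyond the stop codon were not counted for the gene. The other 7 held no motif.

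The members lay in 4 clusters: 55 genes of HIST1 on chromosome 6, 12 of HIST2 and 3 of HIST3 on chromosome 1, and HIST4H4 on chromosome 12. In 11 pairs of nearest neighbours the members stood head to head with under 500 bases between their starts. Of the members, 61 had an entry among RefSeq promoters (GRCh38.p14). In the 250 bases before the start, on either strand, CCAAT was found in 83.6% of them against 32% of 35097 promoters, ATGCAAAT in 42.6% against 1.63%, and TATAAA in 65.6% against 10.7%. The 3 sequences below are shown because they belong to the members with the steadiest radiation responses and to a pair that diverged, with these motifs in capitals. The first spans the stretch between HIST1H2AC and HIST1H2BC, whose annotated starts are 219 bases apart, and runs into both gene models, and the third lies between HIST2H2AC and HIST2H2BE, 323 bases apart.

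HIST1H2AC, chr6:26123922-26124171 (+): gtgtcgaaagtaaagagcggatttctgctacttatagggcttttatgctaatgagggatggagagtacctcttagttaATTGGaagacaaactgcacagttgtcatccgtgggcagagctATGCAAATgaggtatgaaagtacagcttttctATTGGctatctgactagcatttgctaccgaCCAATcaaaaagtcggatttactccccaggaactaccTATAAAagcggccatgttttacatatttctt
HIST1H2BD, chr6:26157871-26158120 (+): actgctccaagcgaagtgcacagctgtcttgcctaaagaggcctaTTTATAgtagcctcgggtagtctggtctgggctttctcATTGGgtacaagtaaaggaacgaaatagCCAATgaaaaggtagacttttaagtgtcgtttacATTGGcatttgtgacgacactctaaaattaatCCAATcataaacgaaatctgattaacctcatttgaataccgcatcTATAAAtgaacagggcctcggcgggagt
HIST2H2AC, chr1:149886668-149886917 (+): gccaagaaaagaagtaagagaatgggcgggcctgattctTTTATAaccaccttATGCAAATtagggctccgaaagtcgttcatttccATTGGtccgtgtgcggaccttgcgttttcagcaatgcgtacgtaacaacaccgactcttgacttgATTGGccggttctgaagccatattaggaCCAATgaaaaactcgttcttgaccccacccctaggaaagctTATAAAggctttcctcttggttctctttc

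All members were low. Of the 71, 29 passed the filter on counts and could be tested, 29 had between 3 and 127 counts in all 24 libraries together, and 13 had none. As a mean over libraries, HIST3H2A was highest at 14.2 CPM per kb of gene length, followed by the linker histone gene HIST1H1C at 5.97, HIST1H2AC at 4.78, HIST2H2AC at 4.07, HIST1H2BK at 3.59 and HIST1H2BD at 3.47. HIST1H2AJ was at 1.81, HIST1H2AE at 1.67, HIST1H2BC at 1.51 and HIST1H2BH at 1.4 CPM per kb. The 23 members whose models run past the stem-loop summed to 36.3 CPM, against 11.7 for the 33 with coding sequence alone. Per kb of gene length, as in the plot of levels by gene model, the medians had the reverse order. They were 0.247 CPM per kb for the 23 and 0.442 for the 33. HIST3H2A and HIST1H2AC together gave 39.6% of the summed CPM of the 71 members, and the tested members gave 92.3%.

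**Figure D1:**
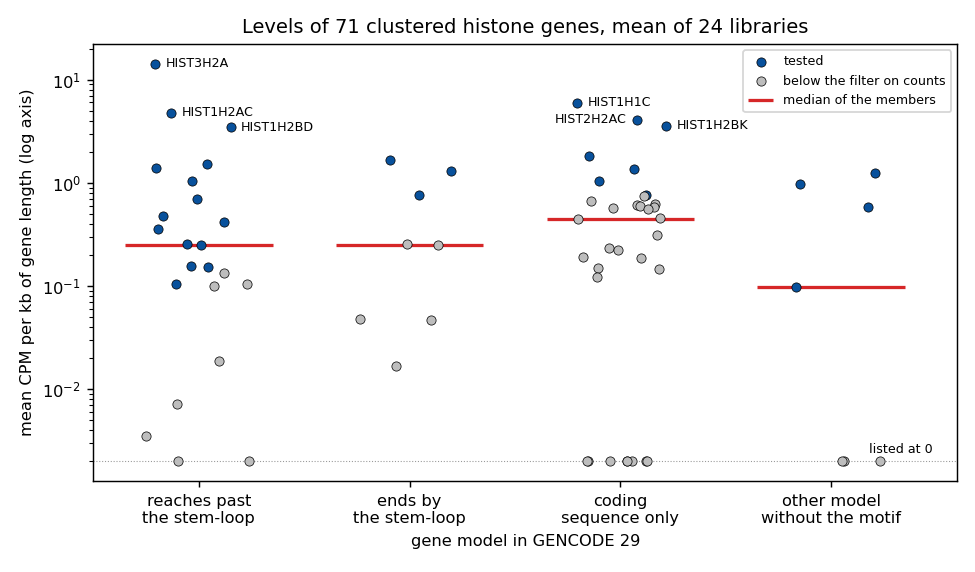
Mean CPM per kb of gene length over 24 libraries (vertical, log axis) for each of the 71 members (points), by the form of the gene model, with filled blue points for members that were tested and a red bar for the median of all members of that form. The 13 members without a count are drawn on the dotted line at the bottom, and HIST3H2A is the highest point at 14.2.

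Among the members too low to test, HIST1H2AH had 127 counts in all, HIST1H2BE 123, HIST4H4 118 and HIST1H3A 111. Near-identical copies could have shared reads: HIST2H4A had 136 counts and HIST2H4B 16, HIST2H2AA3 11 and HIST2H2AA4 12, and HIST2H3A 3 and HIST2H3C 5. Their separate values are uncertain. The exons of 15 members overlap another gene, 5 of them over most of their length, and those 5 were all at 0. HIST2H2BF overlaps FCGR1A on the opposite strand, HIST2H4A overlaps HIST2H3C on the opposite strand, and HIST1H2BN overlaps HIST1H2AL on its own strand and HIST1H2AK on the other, so with no strand setting given their counts are uncertain too. HIST1H3J overlaps HIST1H2AM on its own strand over 44.6% of its exon bases, so its counts are uncertain under any strand setting. One count in a library was worth about 0.0554 CPM, so a member at 0.3 CPM rested on few reads.

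Summed over all members, the level was 44.5 ± 1.88 CPM (SD, n = 3) in untreated WT cells, 54.1 ± 6.55 with CB-839, 55.2 ± 1.78 after RT and 65.8 ± 1.05 after RT with CB-839. In E79Q cells it was 52.5 ± 0.946 untreated, 39.4 ± 1 with CB-839, 56.1 ± 2.24 after RT and 49.7 ± 5.63 after RT with CB-839. The differences came from distinct members. The 6 genes known for tailed transcripts summed to 10.9 ± 1.3 CPM in untreated WT cells and 20.8 ± 0.902 after RT, and to 15.6 ± 0.166 and 24.1 ± 0.905 in E79Q cells. With CB-839 they stood at 15.1 ± 1.12 without and 26.3 ± 0.351 with RT in WT cells, and at 11.3 ± 1.16 and 21.7 ± 1.97 in E79Q cells. In WT cells most of the gain was HIST1H2AC, from a mean of 2.55 to 8.75 CPM, while HIST1H1C was at 3.97 and 4 CPM and HIST1H2BK at 1.49 and 1.26. In each of these 4 pairs of groups the irradiated libraries lay above the unirradiated ones without overlap. The other 65 members did not rise in this way. They summed to 33.5 ± 1.69 untreated and 34.4 ± 1.29 after RT in WT cells, and to 36.9 ± 1.07 and 32.1 ± 1.39 in E79Q cells. With CB-839 these 65 stood at 39 ± 5.56 without and 39.6 ± 0.747 with RT in WT cells, and at 28.1 ± 1.43 and 28 ± 3.71 in E79Q cells. Their irradiated libraries lay below the unirradiated ones in E79Q cells without the drug and overlapped them in the other 3 pairs of groups. HIST3H2A carried much of this sum: without it, the sum in E79Q cells with CB-839 was 18.5 ± 0.964 CPM without and 13.7 ± 2.05 with RT, which did not overlap, and in E79Q cells without the drug 25.9 ± 0.73 and 20.5 ± 1.79. In WT cells the groups still overlapped without it. In WT cells with CB-839 they moved with the small RNAs without a tail: 32.8 CPM in replicate 1, where the small RNAs stood at 139 CPM, and 40.7 and 43.5 in replicates 2 and 3, where they stood at 978 and 975. The part of the small RNAs in these sums was not tested.

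**Figure D2:**
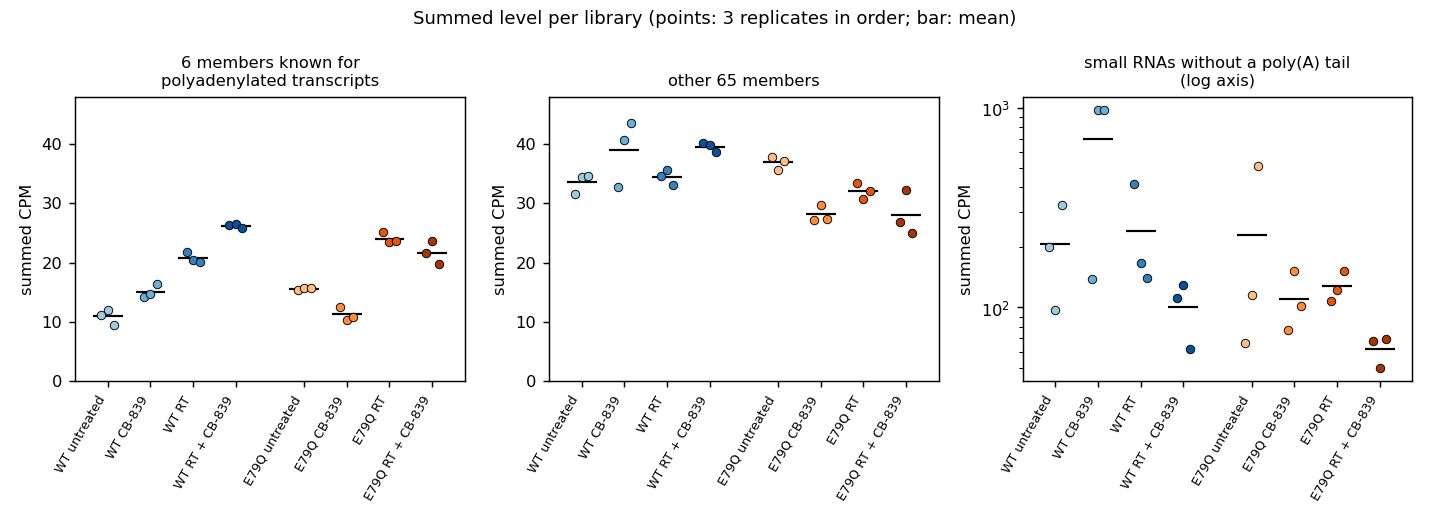
Summed CPM per library (points, replicates 1 to 3 from left to right; bars, group means) for the 6 members known for tailed transcripts, for the other 65 members, and, on a log axis, for small RNAs without a tail. The first sum was 10.9 CPM in untreated and 20.8 in irradiated WT cells on average, while the second was 33.5 and 34.4.

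Radiation changed the histone genes in both directions, and the 4 radiation comparisons have no library in common. In WT cells 3 of the 29 tested members rose and 0 fell, where 17.9% of all 15956 genes tested were called, 9.41% higher and 8.49% lower. In WT cells with CB-839, 3 rose and 3 fell (23.7% of all genes called, 13.2% higher and 10.4% lower). In E79Q cells 3 rose and 5 fell, beside 22.3% of all genes (12.2% higher, 10.1% lower). Given CB-839 as well, 4 rose and 2 fell (29.2% of all genes, 15.3% higher and 13.9% lower). Against these shares the histone genes as a whole did not stand out in number. The median log2 fold change of the 29 tested members was 0.14, -0.081, -0.037 and -0.21 in these 4 comparisons, and that of all genes tested lay between -0.017 and 0.021 in each of the 12 comparisons of 2 groups.

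Those medians joined 2 sets of genes whose own medians differed in sign, though single members of the sets overlapped. Among the 15 tested members whose models run past the stem-loop, the median log2 fold change with RT was 0.83 in WT cells, 0.47 in WT cells with CB-839, 0.48 in E79Q cells and 0.44 in E79Q cells with CB-839. Among the other 14 it was -0.25, -0.36, -0.75 and -0.80. Of the 15, 10 had a positive log2 fold change in all 4 comparisons and only HIST1H2BH a negative one in all 4. Among these 10, HIST2H4A rested on 1 irradiated library in E79Q cells with CB-839. Of the other 14, 0 were positive and 9 negative in all 4, while 20.7% of all genes tested were positive and 19.1% negative in all 4. HIST1H3E, of the second set, had the highest log2 fold change of the 29 in E79Q cells, 2.11 (adjusted p = 0.0691), and was called there with GC and length offsets (adjusted p 0.045) and with only the compared groups (0.0111). HIST2H2BF, of the first set, had the lowest in WT cells with CB-839, -1.92. This division was made after the values had been seen, and it was given no test. With trends on GC content and length removed, the medians were 0.80 and -0.32 in WT cells and 0.47 and -0.87 in E79Q cells. The 4 libraries whose counts rose most with GC content are named in the account of the processing. Without them, the median was 0.22 for the first set in E79Q cells with CB-839 and -0.11 for the second in WT cells with CB-839. The median level was 1.13 CPM in the first set and 0.609 in the second. Summed small RNAs without a tail averaged 208 CPM in untreated and 241 in irradiated WT cells, and 230 and 128 in E79Q cells. With CB-839 they averaged 697 without and 101 with RT in WT cells, and 110 and 62.3 in E79Q cells. Their part in the result was not tested.

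**Figure D3:**
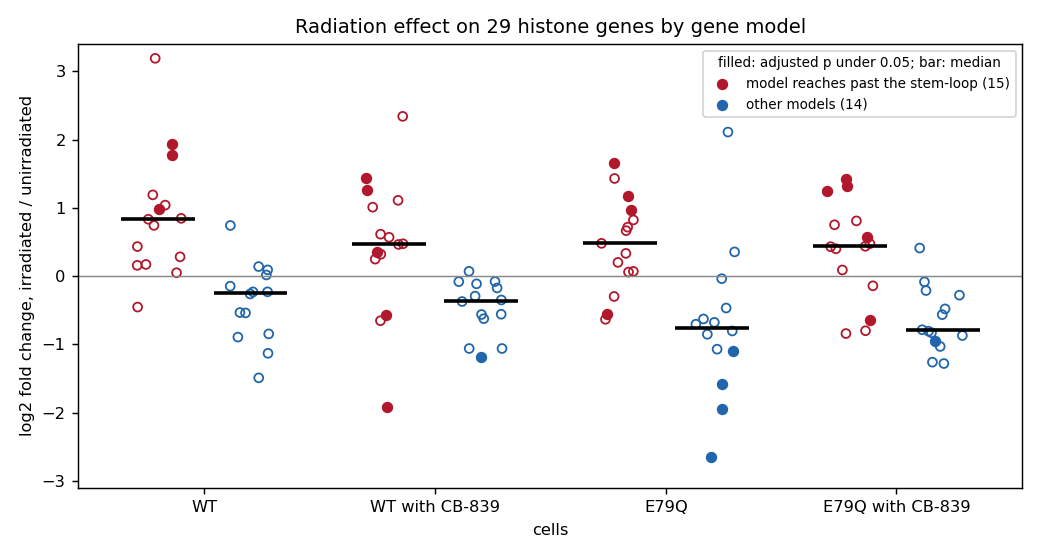
log2 fold change of irradiated against unirradiated cells (vertical) for the 29 tested members, in red where the gene model runs past the stem-loop and in blue for other models; filled points passed the test, and bars are medians. The red medians lie between 0.44 and 0.83 and the blue ones between -0.80 and -0.25.

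Among the H2A genes, which encode a core histone paired with H2B in the nucleosome, HIST1H2AC changed most steadily. It stood at 2.36, 2.58 and 2.72 CPM in untreated WT cells and at 9.22, 8.43 and 8.61 after RT. With CB-839 the WT libraries were at 5.87, 5.89 and 6.14, and after RT with CB-839 at 13.4, 14.9 and 14.8. These 4 groups did not overlap, and the lowest irradiated library with drug was above every other WT library. In E79Q cells HIST1H2AC was at 5.6, 5.88 and 4.92 untreated, at 4.76, 4 and 4.3 with CB-839, at 11.2, 9.76 and 11.1 after RT, and at 11.8, 12.7 and 10.2 after both. Here the 2 irradiated groups overlapped each other and lay wholly above the 2 unirradiated ones. RT raised HIST1H2AC 3.42-fold in WT cells (log2 fold change 1.78, SE 0.13, adjusted p = 4.9e-11) and 2.4-fold in WT cells with CB-839 (1.26, SE 0.11, adjusted p = 1.52e-09). In E79Q cells it rose 1.96-fold (0.97, SE 0.11, adjusted p = 2.33e-07) and with CB-839 2.67-fold (1.42, SE 0.12, adjusted p = 1.31e-09). All 4 calls held in every alternative tried.

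HIST3H2A, the H2A gene of the small HIST3 cluster, was at 10.7, 10.8 and 12 CPM in untreated WT cells, 13.6, 14.1 and 13 after RT, 12.8, 13.2 and 13.7 with CB-839, and 18.2, 17.7 and 14.8 after both. In E79Q cells it was at 12.3, 10.3 and 10.5 untreated, 12, 12.2 and 10.5 after RT, 9.51, 10.2 and 9.22 with CB-839, and 14.3, 16.1 and 12.6 after both. The irradiated libraries with drug were the highest of each genotype. RT raised it 1.49-fold in E79Q cells with CB-839 (log2 fold change 0.58, SE 0.11, adjusted p = 0.000269), a call that held in every alternative. In WT cells with CB-839 it rose 1.28-fold (0.36, SE 0.10, adjusted p = 0.0117), a call lost without WT RT with CB-839 replicate 1 (adjusted p 0.0752) and with WT CB-839 replicate 1 alone in its group (0.0786). Without the drug its log2 fold change was 0.28 in WT cells (adjusted p = 0.0644) and 0.070 in E79Q cells (adjusted p = 0.699). The value in WT cells was called with only the compared groups in the fit (adjusted p 0.0418) and without the 4 libraries (0.0316).

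HIST2H2AC, an H2A gene of the HIST2 cluster, went the other way. It was at 2.45, 2.7 and 2.83 CPM in untreated E79Q cells and at 1.4, 1.04 and 1.28 after RT, and the groups did not overlap. RT lowered it 2.13-fold (log2 fold change -1.09, SE 0.29, adjusted p = 0.00734), and this call held in every alternative. With CB-839 it was at 1.59, 1.54 and 1.21 without and 0.421, 0.925 and 0.837 with RT, a fall of 1.93-fold (-0.95, SE 0.34, adjusted p = 0.0396). That call was lost without E79Q CB-839 replicate 1 or 2, without E79Q RT with CB-839 replicate 1 or 3, with no filter on counts and with only the compared groups in the fit (adjusted p up to 0.138). In WT cells it was at 1.7, 1.78 and 2.78 untreated and 0.912, 1.42 and 1.14 after RT, and the log2 fold change of -0.85 was not called (edgeR adjusted p = 0.0552), though DESeq2 and the GC and length offsets called it (adjusted p 0.0474 and 0.0291).

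HIST1H2AJ and HIST1H2AE each fell in 1 radiation comparison. HIST1H2AJ was at 1.41, 1.06 and 0.962 CPM in untreated E79Q cells and 0.382, 0.311 and 0.445 after RT (log2 fold change -1.58, SE 0.45, adjusted p = 0.0116). Without E79Q untreated replicate 1 its adjusted p was 0.058. HIST1H2AE was at 1.07, 1.37 and 1.69 in WT cells with CB-839 and 0.664, 0.74 and 0.414 after RT with the drug (-1.18, SE 0.36, adjusted p = 0.0172). Its call was lost without WT CB-839 replicate 3, without WT RT with CB-839 replicate 3, with no filter, without 4 libraries whose counts follow GC content, and with WT CB-839 replicate 1 alone in its group (adjusted p up to 0.337). HIST1H2AI, the other tested H2A gene, was not called in any comparison.

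Among the H2B genes, HIST1H2BD rose with RT in all 4 comparisons, and each call held in every alternative. Its levels in WT cells were 1.7, 2.35 and 2.1 CPM untreated, 4.05, 3.86 and 4.24 after RT, 1.47, 1.54 and 1.52 with CB-839, and 4.03, 5.02 and 3.2 after both. In E79Q cells they were 1.74, 1.94 and 2.66, then 5.3, 4.46 and 4.45, then 1.93, 1.66 and 1.27, and 4.75, 3.65 and 3.69 in the same order of groups. Every irradiated library was above every unirradiated one. The fold was 1.97 in WT cells (log2 fold change 0.98, SE 0.20, adjusted p = 0.000816) and 2.7 in WT cells with CB-839 (1.43, SE 0.21, adjusted p = 1.14e-05). It was 2.25 in E79Q cells (1.17, SE 0.20, adjusted p = 6.36e-05) and 2.49 with CB-839 (1.32, SE 0.21, adjusted p = 4.83e-05). HIST1H2BD was called in no comparison of drug or genotype.

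HIST1H2BC, the head-to-head partner of HIST1H2AC, was at 0.714, 0.573 and 0.227 CPM in untreated WT cells and 2.23, 1.52 and 2.09 after RT. It rose 3.8-fold (log2 fold change 1.93, SE 0.37, adjusted p = 0.000445) without overlap, and the call held in every alternative. In E79Q cells with CB-839 it was at 0.207, 0.677 and 0.717 without and 1.62, 0.878 and 1.48 with RT (1.25, SE 0.39, adjusted p = 0.0175). That call was lost without E79Q CB-839 replicate 1, without E79Q RT with CB-839 replicate 3, and with only the compared groups in the fit (adjusted p up to 0.0948). In untreated and irradiated E79Q cells it was at 1.47, 0.999 and 1.53 and at 2.29, 2.02 and 2.28, which do not overlap, with a log2 fold change of 0.72 that was not called.

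HIST1H2BH was the one gene among the 15 with models past the stem-loop whose log2 fold change was negative in all 4 radiation comparisons; HIST2H2BF, HIST3H2BB, HIST1H3H and HIST1H4E were mixed. It was at 3.7, 3.35 and 3.57 CPM in untreated E79Q cells, 2.67, 1.87 and 2.67 after RT, 2.14, 2.58 and 2.15 with CB-839, and 1.44, 1.8 and 1.13 after both. In WT cells it was at 3.19, 3.5 and 4.2 untreated, 2.73, 2.79 and 2.39 after RT, 3.84, 4 and 4.78 with CB-839, and 2.37, 2.91 and 3.26 after both. In both genotypes the irradiated libraries lay below the unirradiated ones of the same drug state. Its log2 fold change with RT was -0.55 in E79Q cells (SE 0.19, adjusted p = 0.0351), -0.64 in E79Q cells with CB-839 (SE 0.22, adjusted p = 0.0279) and -0.57 in WT cells with CB-839 (SE 0.18, adjusted p = 0.0244), while -0.45 in WT cells was not called. All 3 calls were lost with no filter on counts, and both with the drug also with trends on GC content and length removed. The calls in E79Q cells and in WT cells with CB-839 were lost without the 4 libraries that follow GC content, that in E79Q cells with CB-839 with only the compared groups, and that in WT cells with CB-839 with WT CB-839 replicate 1 alone in its group (adjusted p up to 0.343 over these). The call in E79Q cells was also lost without any 1 untreated library or E79Q RT replicate 2 (adjusted p up to 0.179). With CB-839 it was lost in E79Q cells without E79Q CB-839 replicate 2 or E79Q RT with CB-839 replicate 1 or 3 (up to 0.13), and in WT cells without WT CB-839 replicate 3 or WT RT with CB-839 replicate 1 (up to 0.135).

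HIST2H2BF fell in WT cells with CB-839, from 0.226, 1.32 and 1.74 CPM to 0.569, 0.106 and 0.155 after RT, although the groups overlap (log2 fold change -1.92, SE 0.65, adjusted p = 0.0317). The call was lost without WT CB-839 replicate 2 or 3 or without WT RT with CB-839 replicate 2 or 3 (adjusted p up to 0.171), and with WT CB-839 replicate 1 alone in its group the log2 fold change was 0.33 (adjusted p 0.879). HIST2H2BE was not called in any radiation comparison: its log2 fold change was 1.04 (95% interval 0.074 to 2.01) in WT cells, 1.11 (0.23 to 1.99) with CB-839, 0.82 (-0.053 to 1.70) in E79Q cells and 0.75 (-0.095 to 1.60) with CB-839. With the replicate number as a block it was called in WT cells with CB-839 (1.18, adjusted p 0.0328). The remaining H2B genes tested, HIST1H2BG, HIST1H2BK, HIST1H2BL, HIST1H2BN and HIST3H2BB, were not called with RT.

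The H1 genes encode the linker histone that binds where DNA enters and leaves the nucleosome. HIST1H1C ranged from 2.07 to 5.69 CPM over the 24 libraries and was called in none of the 12 comparisons. After RT with CB-839 it was called lower in E79Q than in WT cells with no filter (log2 fold change -0.68, adjusted p 0.024), with GC and length offsets (-0.72, adjusted p 0.0336) and without the 4 libraries (-0.99, adjusted p 0.014). Its log2 fold change with RT was 0.017 in WT cells (95% interval -0.47 to 0.51) and -0.037 in E79Q cells (-0.53 to 0.45). HIST1H1E, the other tested H1 gene, had a negative log2 fold change in all 4 radiation comparisons, from -1.28 to -0.54, and was not called, though with GC and length offsets it was in E79Q cells with CB-839 (-1.43, adjusted p 0.0399).

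The H3 and H4 genes encode the proteins at the core of the nucleosome, and most of their calls rest on few reads. HIST1H3C fell with RT in E79Q cells from 0.435, 0.588 and 1.3 CPM to 0.254, 0.156 and 0.167 (log2 fold change -1.94, SE 0.54, adjusted p = 0.00928). Without E79Q untreated replicate 3 its adjusted p was 0.117. HIST1H4D fell in the same comparison from 0.599, 0.411 and 0.962 to 0.0424, 0.104 and 0.167 (-2.65, SE 0.77, adjusted p = 0.0132), a call lost without E79Q untreated replicate 3 or E79Q RT replicate 1 (adjusted p up to 0.0731). HIST1H4H rose there from 0.109, 0.411 and 0.396 to 1.23, 1.14 and 0.501 (1.66, SE 0.59, adjusted p = 0.042). That call was lost without any 1 untreated library, without E79Q RT replicate 1 or 2, with the replicate number as a block and without 4 libraries whose counts follow GC content (adjusted p up to 0.184). These libraries held few reads for each of the 3 genes.

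HIST2H4A went from 0, 0.0573 and 0.0567 CPM in untreated WT cells to 0.253, 0.254 and 0.717 after RT. These values rest on 2 counts in all against 22, a ratio of 10.4 (95% exact interval 2.56 to 91.5, counting error only), and the fitted fold of so few reads depends on the prior count. The change was not called (edgeR adjusted p = 0.0653), but it was by DESeq2 (0.0449), with no filter (0.0157), with GC and length offsets (0.041), with only the compared groups (0.00935) and without the 4 libraries (0.00664). In E79Q cells with CB-839 its log2 fold change with RT was 0.431, where the irradiated libraries held 0, 20 and 0 counts. Without the 4 libraries, which include the one with 20 counts, it was -5.19 (edgeR adjusted p 0.0178). Some reads of HIST2H4A may belong to the near-identical HIST2H4B. HIST1H3G, at 0.879 to 2.33 CPM, HIST1H3H, HIST1H3J, HIST1H4C, HIST1H4E and HIST2H3D were called in no comparison over all 24 libraries, and HIST1H3J only with RT in WT cells when the compared groups alone were fitted (-1.49, adjusted p 0.0388). The counts of HIST1H3J are uncertain, since its exons overlap HIST1H2AM.

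Head-to-head neighbours did not always move together. Of the 11 pairs, 5 had both members tested. HIST1H2AC and HIST1H2BC both had positive log2 fold changes with RT in all 4 comparisons. HIST2H2BE and HIST2H2AC, whose starts lie 323 bases apart, went opposite ways in all 4: 1.04 and -0.85 in WT cells, 1.11 and -0.62 with CB-839, 0.82 and -1.09 in E79Q cells, and 0.75 and -0.95 with CB-839. HIST1H2BG and HIST1H2AE, 283 bases apart, did so too, with 0.83 and -0.26, 0.57 and -1.18, 0.20 and -0.80, and 0.81 and -0.83 in the same order. In both pairs the H2B model runs past the stem-loop and the H2A model does not. The remaining pairs share a form of model and did not always move together either. HIST1H2AI and HIST1H2BL, which end by the stem-loop, had 0.14 and -0.53, 0.07 and -0.37, 0.36 and -0.70, and -0.56 and -0.28. HIST3H2A and HIST3H2BB, which run past it, had 0.28 and 0.05, 0.36 and 0.61, 0.07 and -0.30, and 0.58 and -0.80. The difference within a pair was not tested, and neither HIST2H2BE nor HIST1H2BG was called by itself.

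**Figure D4:**
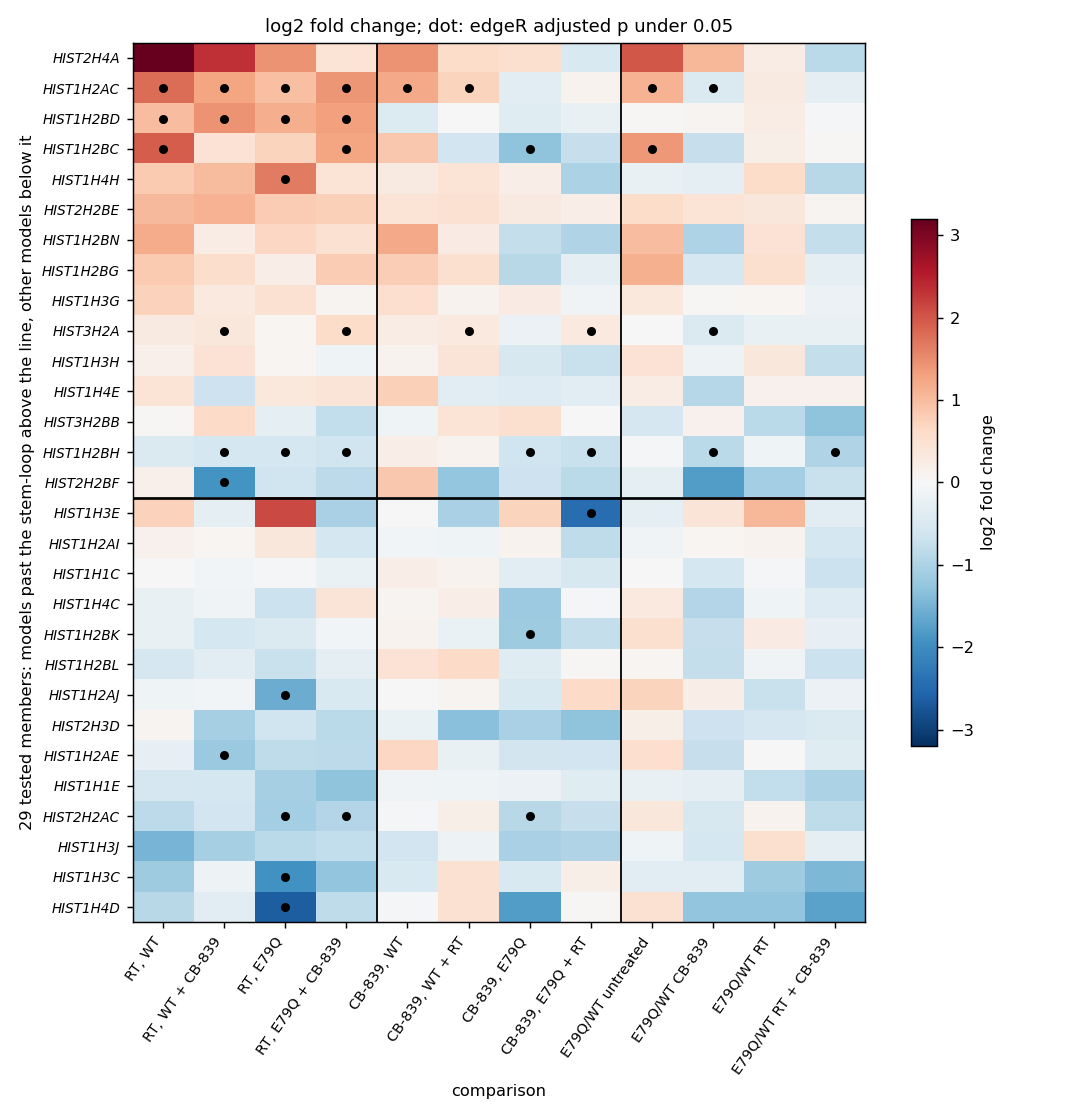
log2 fold change (colour) of the 29 tested members (rows) in the 12 comparisons of 2 groups (columns), with a dot where edgeR's adjusted p was under 0.05. Members whose models run past the stem-loop are above the line, and HIST1H2AC carries 8 dots, HIST1H2BH 7 and HIST1H2BD 4, all of the last with RT.

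Few histone genes were called with CB-839, and its effect on HIST1H2AC differed between the genotypes. The median log2 fold change of the 29 tested members with the drug was 0.215 in unirradiated and 0.124 in irradiated WT cells. In E79Q cells it was -0.493 and -0.494, with 22 and 21 of the 29 negative, against 9 and 10 in WT cells. For all genes tested the medians were -0.00698, -0.0155, 0.0212 and -0.0172 in the same order. These medians were given no test. In WT cells the summed small RNAs without a tail averaged 697 CPM with the drug against 208 without it. After RT they averaged 101 against 241. In E79Q cells they averaged 110 against 230, and 62.3 against 128 after RT. Their part in these medians was not tested. The drug comparisons use the same libraries as the radiation comparisons. In unirradiated WT cells 1 member rose and 0 fell (14.8% of all genes called, 6.35% higher and 8.44% lower), and it was HIST1H2AC, 2.33-fold (log2 fold change 1.22, SE 0.13, adjusted p = 1.91e-07). In irradiated WT cells 2 rose and 0 fell (9.53% of all genes called, 4.99% higher and 4.53% lower): HIST1H2AC by 1.64-fold (0.71, SE 0.10, adjusted p = 4.26e-05) and HIST3H2A by 1.25-fold (0.32, SE 0.10, adjusted p = 0.0457). Both HIST1H2AC calls held in every alternative. The call of HIST3H2A was lost without any 1 WT RT library, without WT RT with CB-839 replicate 1 or 2, with no filter and without 4 libraries whose counts follow GC content (adjusted p up to 0.222).

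In unirradiated E79Q cells CB-839 lowered 4 members and raised 0, where 19.8% of all genes were called, 9.44% higher and 10.4% lower. HIST1H2BC fell 2.42-fold (log2 fold change -1.28, adjusted p = 0.0223), HIST1H2BK 2.21-fold (-1.14, adjusted p = 0.0185), HIST2H2AC 1.85-fold (-0.88, adjusted p = 0.0347) and HIST1H2BH 1.54-fold (-0.63, adjusted p = 0.0243). HIST1H2BK was at 1.69, 2.06 and 2.6 CPM untreated and 1.45, 0.923 and 0.552 with the drug. Each of the 4 calls depended on single libraries, with adjusted p up to 0.131. HIST2H2AC lost it without any 1 of the 6 libraries. HIST1H2BH lost it without untreated replicate 1 or 3 or CB-839 replicate 1 or 3, HIST1H2BC without untreated replicate 1 or 3 or CB-839 replicate 1, and HIST1H2BK without untreated replicate 3 or CB-839 replicate 2 or 3. HIST1H2BH also lost it with no filter and without 4 libraries whose counts follow GC content (adjusted p up to 0.0607). HIST1H2AC had a log2 fold change of -0.33 here and was not called (adjusted p = 0.0665).

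In irradiated E79Q cells 1 member rose and 2 fell with CB-839 (26% of all genes called, 12.9% higher and 13.1% lower). HIST3H2A rose 1.24-fold (log2 fold change 0.31, adjusted p = 0.0272), HIST1H2BH fell 1.64-fold (-0.72, adjusted p = 0.0133) and HIST1H3E fell 5.38-fold (-2.43, adjusted p = 0.0352), the last from 0.593, 0.934 and 0.501 CPM to 0.18, 0.139 and 0.0492. HIST3H2A lost its call without E79Q RT replicate 3 or E79Q RT with CB-839 replicate 2, with no filter, with only the compared groups and without 4 libraries whose counts follow GC content (adjusted p up to 0.206). HIST1H2BH lost it without E79Q RT replicate 1 or 3, without E79Q RT with CB-839 replicate 3, with GC and length trends removed and with only the compared groups (up to 0.11). HIST1H3E lost it without E79Q RT replicate 1 or 2 or E79Q RT with CB-839 replicate 2 or 3 (up to 0.117).

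Between genotypes, E79Q cells had more HIST1H2AC and HIST1H2BC than WT cells when untreated. They were the members called in untreated cells (2 higher and 0 lower, where 19.7% of all genes were called, 9.62% higher and 10.1% lower). HIST1H2AC was 2.14-fold higher (log2 fold change 1.10, SE 0.14, adjusted p = 7.97e-07), which held in every alternative, and HIST1H2BC 2.62-fold (1.39, SE 0.39, adjusted p = 0.0123), with an adjusted p of 0.085 without WT untreated replicate 3. With CB-839, 0 members were higher and 3 lower in E79Q cells (15% of all genes called, 8.3% higher and 6.72% lower): HIST1H2BH by 1.83-fold (-0.88, adjusted p = 0.00193), HIST3H2A by 1.37-fold (-0.45, adjusted p = 0.00442) and HIST1H2AC by 1.37-fold (-0.46, adjusted p = 0.0122). With WT CB-839 replicate 1 alone in its group, a lone library assumed to vary like the other groups, the log2 fold changes were -0.74, -0.40 and -0.43, and none passed the test (adjusted p 0.129, 0.173 and 0.203). That of HIST1H2AC was also lost without E79Q CB-839 replicate 2 (adjusted p 0.0723), with no filter and without 4 libraries whose counts follow GC content. In irradiated cells 0 members were called by edgeR, 3 had an unadjusted p under 0.05, and DESeq2 called 0 (9.64% of all genes called, 4.69% higher and 4.95% lower). HIST1H2AC was at 9.76 to 11.2 CPM in these E79Q libraries and 8.43 to 9.22 in the WT ones, which did not overlap (log2 fold change 0.29, adjusted p = 0.0844). After RT with CB-839, 0 were higher and 1 was lower, HIST1H2BH by 1.93-fold (-0.95, adjusted p = 0.00344; 7.26% of all genes called, 4.4% higher and 2.86% lower), and its adjusted p was 0.117 with only the compared groups in the fit. HIST3H2BB, the H2B gene beside HIST3H2A, was not called there (-1.29, adjusted p = 0.0517), but it was by DESeq2 (-1.30, adjusted p 0.027), with no filter (adjusted p 0.0189), with GC and length offsets (0.0233) and without the 4 libraries (0.0478).

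**Figure D5:**
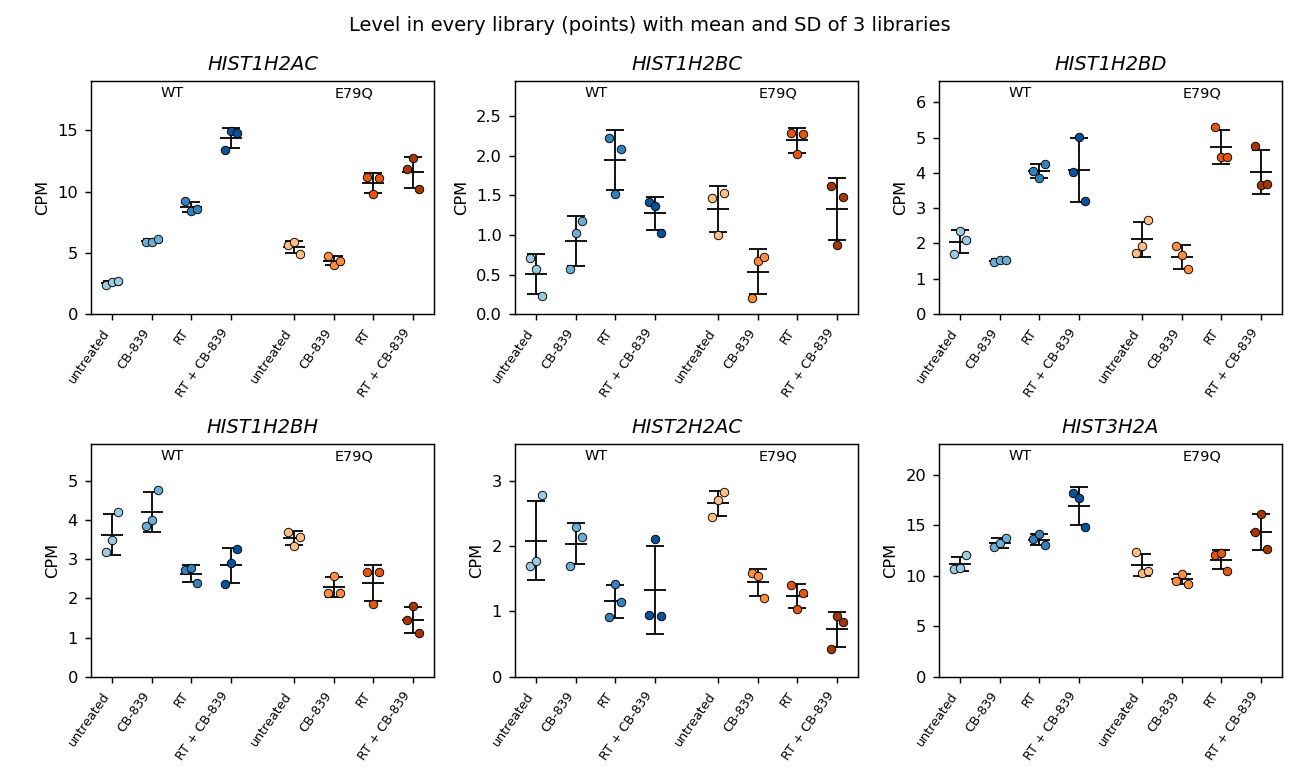
CPM in every library (points; replicates 1 to 3 from left to right) with the mean and SD of 3 libraries (bars) for 6 members in the 8 groups. In WT cells HIST1H2AC goes from 2.36 to 2.72 CPM untreated to 13.4 to 14.9 after RT with CB-839, while HIST1H2BH is lowest, at 1.13 to 1.8, in E79Q cells given both.

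The difference between genotypes in an effect was tested directly, as the effect in E79Q minus that in WT cells. For CB-839 without radiation it was -1.55 for HIST1H2AC (SE 0.19, adjusted p = 1.1e-06), and this held in every alternative. It was also called for HIST1H2BC (-2.14, SE 0.57, adjusted p = 0.0117) and HIST1H2BH (-0.84, SE 0.27, adjusted p = 0.033), so that 3 of 29 members were called, all lower, against 14.3% of all genes, 7.46% higher and 6.83% lower. DESeq2 called 4, with HIST3H2A added (-0.46, adjusted p 0.0438). With GC and length offsets edgeR also called HIST3H2A (-0.46, adjusted p 0.0189) and HIST1H2BK (-1.34, adjusted p 0.0388). The median difference of the 29 was -0.835, with 25 negative and 4 positive, beside 0.0311 for all genes tested. It was given no test. Summed small RNAs without a tail averaged 208 ± 115 CPM untreated and 697 ± 483 with CB-839 in WT cells. In E79Q cells they averaged 230 ± 242 and 110 ± 38.2, and their part in this difference was not tested. With WT CB-839 replicate 1 alone in its group the differences for HIST1H2BC and HIST1H2BH were -1.43 and -0.71 and did not pass (adjusted p 0.305 and 0.229). HIST1H2BH lost its call without any 1 of 7 libraries, untreated replicates 1 and 2 of WT, untreated replicates 1 and 3 of E79Q, WT CB-839 replicate 3 and E79Q CB-839 replicates 1 and 3 (adjusted p up to 0.0936), and also with no filter and without the 4 libraries. For RT without the drug the difference was called for HIST1H2AC alone (-0.81, SE 0.17, adjusted p = 0.0119; 1.26% of all genes called, 0.815% higher and 0.445% lower), with an adjusted p of 0.0511 without WT untreated replicate 1 and 0.0707 with no filter. It shares the untreated libraries with the difference for CB-839 without radiation. HIST1H2AC averaged 2.55 CPM in untreated WT and 5.47 in untreated E79Q cells, and 8.75 and 10.7 after RT. For RT with the drug edgeR called 0 members, DESeq2 0, and 1 had an unadjusted p under 0.05 (1.08% of all genes called, 0.363% higher and 0.714% lower).

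For CB-839 in irradiated cells the genotype difference was -0.60 for HIST1H2AC (SE 0.14, adjusted p = 0.026; 1 member, 1.91% of all genes called, 1.26% higher and 0.652% lower). Its call was lost without WT RT replicate 2 or 3, E79Q RT replicate 1 or 3, WT RT with CB-839 replicate 2 or 3, or E79Q RT with CB-839 replicate 3 (adjusted p up to 0.0905), and also with no filter and with only the compared groups (up to 0.144). The joint effect of RT and CB-839 beyond the sum of both was called in E79Q cells for HIST3H2A (0.51, SE 0.15, adjusted p = 0.0286; 14.5% of all genes called, 7.83% higher and 6.66% lower). It was lost without E79Q untreated replicate 1, E79Q RT replicate 3, E79Q CB-839 replicate 3 or E79Q RT with CB-839 replicate 2, with only the compared groups and without 4 libraries whose counts follow GC content (adjusted p up to 0.216). In WT cells edgeR and DESeq2 called 0 members, and 3 had an unadjusted p under 0.05 (4.02% of all genes called, 2.75% higher and 1.27% lower).

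Genes that act with the clustered histones were described from lists. Beside their counts with RT, the share of all genes tested that was lower was 8.49% in WT cells, 10.4% with CB-839, 10.1% in E79Q cells and 13.9% with CB-839, and the share that was higher was 9.41%, 13.2%, 12.2% and 15.3%. Of 11 tested genes listed as replication-independent histone variants, 8 were lower and 0 higher in WT cells, and 7 and 0 with CB-839. In E79Q cells the counts were 9 and 0, and 6 and 0 with CB-839. H1F0, the linker histone of non-dividing cells, went from 162 ± 2.78 to 95.2 ± 5.29 CPM in WT cells (SD, n = 3; log2 fold change -0.77, adjusted p = 1.17e-08) and from 115 ± 4.91 to 60.4 ± 5.63 in E79Q cells (-0.92, adjusted p = 6.5e-10). H2AFV, an H2A.Z variant, went from 179 ± 3.77 to 128 ± 1.08 CPM in WT cells (-0.48, adjusted p = 9.44e-09). H1F0 was also lower with CB-839 alone, with a log2 fold change of -0.49 in WT cells (adjusted p = 2.05e-05) and -0.61 in E79Q cells (adjusted p = 1.14e-06).

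Of 22 genes for histone mRNA transcription and 3′ processing, RT lowered 4 and raised 0 in WT cells, 8 and 0 with CB-839, 5 and 0 in E79Q cells, and 12 and 0 with CB-839. SLBP, which binds the stem-loop, was at 160 ± 3.67 CPM in untreated E79Q cells. It fell to 131 ± 6.05 with RT alone (log2 fold change -0.29, adjusted p = 9.78e-05) and to 134 ± 3.8 with CB-839 alone (-0.26, adjusted p = 0.000478). CASP8AP2, a coactivator of histone gene transcription, fell with RT in E79Q cells with CB-839 from 35.2 ± 3.92 to 20 ± 5.44 CPM (-0.83, adjusted p = 0.000298). Of 19 histone chaperones RT lowered 10 in WT cells and 9 with CB-839, raising 0 in both, and lowered 11 in E79Q cells and 6 with CB-839, raising 1 and 0. The one that rose was ASF1A. SET, a chaperone of H3 and H4, fell from 1280 ± 29.3 to 1080 ± 20.1 CPM in WT cells (-0.25, adjusted p = 0.000453).

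Of 30 genes of G1/S and DNA replication, RT lowered 10 and raised 2 in WT cells, lowered 12 and raised 2 in WT cells with CB-839, lowered 18 and raised 0 in E79Q cells, and lowered 11 and raised 3 in E79Q cells with CB-839. PCNA, the sliding clamp of DNA polymerase, fell from 198 ± 11.5 to 157 ± 4.06 CPM in WT cells (log2 fold change -0.33, adjusted p = 2.23e-05) and from 208 ± 2.11 to 149 ± 1.13 in E79Q cells (-0.48, adjusted p = 6.99e-08). The median over these 30 genes was -0.13 in WT and -0.23 in E79Q cells. In unirradiated E79Q cells CB-839 lowered 13 of the 30 and raised 1, CCNE2 (10.4% of all genes lower and 9.44% higher), and in WT cells it lowered 2 and raised 5 (8.44% and 6.35%). Tested directly, the effect of CB-839 was lower in E79Q than in WT cells for 10 of the 30 and higher for 1 (6.83% and 7.46% of all genes). The part of these genes in the histone values was not tested, and in bulk RNA fewer cells in S phase and less RNA per cell cannot be told apart.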

How the data were processed

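The authors deposited 1 table of raw read counts per gene for 24 libraries, with no normalization per the file headers, and a deposited gene_length column with other values, lengths in base pairs. STAR, HTSeq and GRCh38 are named in the submitters' processing notes; the sources used here do not give versions, annotation, strand setting or poly(A) selection. The series text describes 12 irradiated samples and the table holds 24, so a batch between irradiated and unirradiated libraries cannot be told apart from radiation. The last 3 columns carry shortened names and were matched by sample title. Coordinates of all 71 members equal those of GENCODE 29.

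Tests used edgeR 4.0.16 (R 4.3.3): filterByExpr (15956 of 34983 genes with a read), TMM scaling, and a quasi-likelihood fit of 8 group means over all 24 libraries with 16 residual degrees of freedom. Calls have a Benjamini-Hochberg adjusted p under 0.05 over all genes tested, in each of 18 comparisons. An exact test of 3 against 3 cannot give a p under 0.1. CPM use scaled library sizes. A procedure check was run on simulated data. Members and lists were chosen with earlier results of these data known. Named members are those called at least once, the 10 highest per kb, untested examples, near-identical copies, and in other lists the 2 of smallest p each way; others named were chosen after their values were seen. Alternatives were DESeq2 1.42.0, its size factors in edgeR, no filter, the replicate number as a block, offsets for GC content and length, both together, only the compared groups, each library left out, and 4 libraries that follow GC content left out. Those 4 were E79Q RT with CB-839 replicate 2, WT RT with CB-839 replicate 1, WT CB-839 replicate 3 and E79Q untreated replicate 1. Their departures from the group mean correlated with GC content at 0.48, 0.26, 0.18 and 0.17 in that order. Libraries with negative correlations stayed in, of which E79Q RT with CB-839 replicate 1 was the strongest at -0.38. The fit with WT CB-839 replicate 1 alone in its group was chosen after seeing the data, and takes its spread from the other groups. Replicate numbers did not pair the libraries. No duplicated library was found: the chi-square per gene between replicates was 2.25 to 32.3. The highest values, 32.3 and 22.1, were those of the pairs that hold E79Q RT with CB-839 replicate 2.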

Additional observations from a re-analysis of the deposited data

Results flagged for a closer look

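Each result here is a difference between 2 effects that passed the test on the difference itself, in edgeR's quasi-likelihood fit with Benjamini-Hochberg adjustment. The effect of CB-839 in unirradiated cells was lower in E79Q than in WT cells for HIST1H2AC, by -1.55 on the log2 scale, for HIST1H2BC, by -2.14, and for HIST1H2BH, by -0.84. HIST1H2AC went from 2.55 to 5.96 CPM on average in WT cells and from 5.47 to 4.35 in E79Q cells. In irradiated cells the difference in the effect of CB-839 on HIST1H2AC was -0.60. The effect of RT without the drug on HIST1H2AC was lower in E79Q than in WT cells by -0.81. This difference and that for CB-839 in unirradiated cells share the untreated libraries. After RT alone HIST1H2AC averaged 8.75 CPM in WT and 10.7 in E79Q cells. For HIST3H2A in E79Q cells, the effect of RT was larger with CB-839 than without it by 0.51.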

How the results depend on the processing

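Of the 39 calls of members in the 12 comparisons of 2 groups, 17 held whichever library was left out and 14 held under every alternative; of the 6 calls of a difference between effects, 2 and 1 did. DESeq2 lost 0 of the 39, and GC and length offsets lost 3. The causes of the changes below were not tested.

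The labels' replicate numbers are not a pairing: 4 of 24 libraries correlated best with their own number and same-number correlations ran from -0.175 to 0.0871. With the replicate number as a block 1 of the 39 calls was lost, HIST1H4H with RT in E79Q cells (log2 fold change 1.66, adjusted p 0.0555), and the count of members called with RT was 7 in E79Q cells and 7 in WT cells with CB-839. The block changed the side of no other call of the 39.

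The number of members called in E79Q against WT cells after RT with CB-839, 1 in the report, was 3 with no filter, 3 with GC and length offsets, 3 with these and the block, 2 with DESeq2, 0 with only the compared groups and 5 without the 4 libraries that follow GC content. For RT in WT cells, 3 in the report, it was 5 with the offsets, 5 with DESeq2, 7 with only the compared groups and 6 without the 4 libraries. With only the compared groups it was 3 for RT in E79Q cells with CB-839, 1 for CB-839 in irradiated E79Q cells, and 0 for the joint effect in E79Q cells and for the genotype difference in CB-839 effect after RT. With no filter it was 1 for CB-839 in irradiated WT cells and 0 for the genotype difference in RT effect and in CB-839 effect after RT. With the offsets, with and without the block, it was 5 for the genotype difference in CB-839 effect and 2 for the joint effect in E79Q cells, and with both it was 2 for CB-839 in WT cells. Without the 4 libraries it was 1 for the genotype difference in RT effect with CB-839 and 2 for that in CB-839 effect after RT. With WT CB-839 replicate 1 alone in its group it was 0 for E79Q against WT cells with CB-839, 2 for RT in WT cells with CB-839, 1 for the genotype difference in CB-839 effect, and HIST2H2BF reversed to 0.331 in RT in WT cells with CB-839. Without scaling factors the summed level in untreated E79Q cells was 51.2 CPM.

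Leaving out each library in turn gave 1 to 3 members called in untreated E79Q against WT cells, 1 to 5 after RT with CB-839, 3 to 7 for RT in WT cells with CB-839, 1 to 2 for CB-839 in irradiated WT cells, 4 to 8 for RT in E79Q cells and 3 to 7 with CB-839, 1 to 4 for CB-839 in E79Q cells and 1 to 3 after RT. It gave 0 to 1 for the genotype difference in RT effect, 0 to 1 with CB-839, 2 to 4 for that in CB-839 effect, 0 to 2 for that in CB-839 effect after RT, and 0 to 2 for the joint effect in E79Q cells. Low counts limit most members: the 42 not tested had at most 127 counts over 24 libraries.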

Other observations

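Of the 13 members at 0 in all 24 libraries, HIST1H2BJ, HIST1H2AG and HIST1H4I lie next to each other on chromosome 6, from 27125897 to 27139881 on GRCh38, and share no exon with another gene. The next member, HIST1H2BK, at 27146418 to 27146798, had 603 counts, and its head-to-head partner HIST1H2AH 127. HIST1H2AG and HIST1H4I have models that run past the stem-loop, the form with the highest summed level among the other members. The median of this form was 0.247 CPM per kb, below the 0.442 of models with coding sequence alone. Other members of this form were near 0 as well, such as HIST2H3A with 3 counts. Whether the run at 0 reflects the cells or how reads were assigned was not tested.

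Across the 8 group means, the genes whose log CPM followed HIST1H2AC most closely were THAP10 (Pearson's r 0.986), FOXE1 (0.983), GOSR2 (0.982), AC068282.1 (0.975) and UNC13D (0.972). These are descriptions over 8 points that share libraries and scaling. Among the members, HIST1H3G (0.932) and HIST2H2BE (0.921) were closest and HIST1H1E (-0.769) farthest.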
